A study of Homo sapiens with 6 samples.

Results

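The nuclear-encoded subunits of oxidative phosphorylation (OXPHOS) were examined in PANC-1 cells with and without maslinic acid (MA). The rule for the members reads the gene name and no measured value, although it was set with earlier results of these data known. It takes genes whose symbol has the form of a complex I subunit (NDUFA, NDUFB, NDUFC, NDUFS or NDUFV and a number), of succinate dehydrogenase (SDHA to SDHD), of the listed nuclear UQCR and COX subunits, or of the ATP synthase subunits ATP5F1A to ATP5F1E. This gave 64 of the 58825 genes in the table, with 37 in complex I, 4 in complex II, 8 in complex III, 10 in complex IV and 5 in complex V. All 64 passed the filter on low values. NDUFA4 was counted with complex I because of its name, although it is now known as a subunit of cytochrome c oxidase, which is complex IV.

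PANC-1 is an established human pancreatic ductal carcinoma cell line, and MA is a triterpenoid found in olives. Poly(A) RNA was sequenced from 3 samples treated with 40 µM MA for 24 h (MA PANC-1 1, 2 and 3) and from 3 untreated samples of the same line (PANC-1 1, 2 and 3). The treatment text of the labels names MA for all 6 samples, but the sample characteristics mark these 3 as untreated, and the characteristics were followed. Both groups are the same line in culture, with no other genetic change or agent given by the labels. The culture methods of the study give cells MA or DMSO, whereas its sequencing methods do not name DMSO. The methods of the study describe the samples of a group as biological replicates.

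The respiratory chain sits in the inner mitochondrial membrane. Complex I takes electrons from NADH and complex II from succinate, ubiquinone carries them to complex III, cytochrome c carries them on to complex IV, and complex IV reduces oxygen to water. Complexes I, III and IV pump protons, and complex V (ATP synthase) makes ATP as the protons flow back. Most subunits are encoded in the nucleus, made in the cytosol and imported, whereas a small core is encoded by mitochondrial DNA, and complex II is built from nuclear-encoded subunits alone.

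The estimated counts summed to 56978375, 63984133 and 58181114 in the MA samples and to 70275355, 65607669 and 59422939 in the untreated samples. Their precision was therefore limited by the 3 samples per group more than by depth, since even the least covered member, NDUFA5, had 995 to 1949 counts in a sample. MA PANC-1 2 stood apart from the other 5 samples. Its score on the first principal component was -73.6 against -29.5 to 44.9 in the others, and its count-weighted mean GC content was 52.0% against 50.6 to 51.1%. Among the subunits described by their fold changes, those whose call or sign MA PANC-1 2 altered are therefore also given without it. The genes of related lists are given with all 6 samples.

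Of 6 marker genes listed for the line, 3 were abundant and 3 were low. VIM lay between 521 and 754 FPKM (fragments scaled to the length of the gene and the size of the library), KRT18 between 278 and 338 and KRT8 between 141 and 225, whereas the epithelial genes KRT19, EPCAM and CDH1 had mean values of 0.053, 0.071 and 0.93 FPKM. Of 17 genes marking other cells, COL3A1 was the most abundant at 10.5 to 19.0 FPKM, followed by COL1A1 at 2.64 to 5.96. The acinar genes PRSS1, CPA1 and AMY2A, the islet genes INS and GCG and the T cell gene CD3E had no counts in any sample. The summed FPKM of these 17 genes was 18.5, 16.6 and 13.5 after MA and 19.5, 17.7 and 25.1 without it.

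The members spanned a wide range of levels within every complex. The highest mean FPKM was that of ATP5F1B, the catalytic beta subunit of ATP synthase, at 560.1, and the lowest was that of NDUFA5, an accessory subunit of complex I, at 2.06. Inside complex I the order ran from NDUFS5 at 363.7 FPKM down to NDUFA5, a 177-fold span, although the encoded proteins sit in the same complex. The span was 13.8-fold in complex II (SDHB to SDHC), 26.5-fold in complex III (UQCRH to UQCRB), 16.2-fold in complex IV (COX8A to COX7B) and 33.9-fold in complex V (ATP5F1B to ATP5F1D). With counts divided by the length of the principal transcript, the spans were 59.5-fold in complex I, where NDUFV3 was then lowest and NDUFA5 ranked 61 of the 64, 28.3-fold in complex II, 33.7-fold in complex III, 18.5-fold in complex IV and 12.9-fold in complex V.

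The order of these levels depended on the gene length that was divided by. The length implied by the deposited FPKM tracked the merged exons of all annotated transcripts of a gene, with a median ratio of 1.19 to that length and a 5th to 95th percentile of 1.15 to 1.23 over 10476 genes. Its ratio to the principal transcript had a median of 1.81 and a 5th to 95th percentile of 1.19 to 5.39. Genes whose merged exons are long beside the principal transcript therefore have a low FPKM for their counts. Complex I had the lowest median FPKM over its members at 25.8, complex II had 33.4, complex V 45.8, complex IV 63.1 and complex III 64.7. When library-scaled counts (CPM) were divided by the kilobases of the principal transcript instead, complex I stayed lowest with a median of 78.8, complex IV was far above the rest at 246.5, and complexes II, V and III lay close together at 102.1, 102.5 and 104.0. ATP5F1B ranked highest of the 64 on both scales, while COX4I1, a subunit of cytochrome c oxidase, moved from rank 33 by FPKM to rank 8 per kilobase of principal transcript. Over the 64 members Spearman's rho between the scales was 0.77, as a description across genes that share the same libraries.

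**Figure D1:**
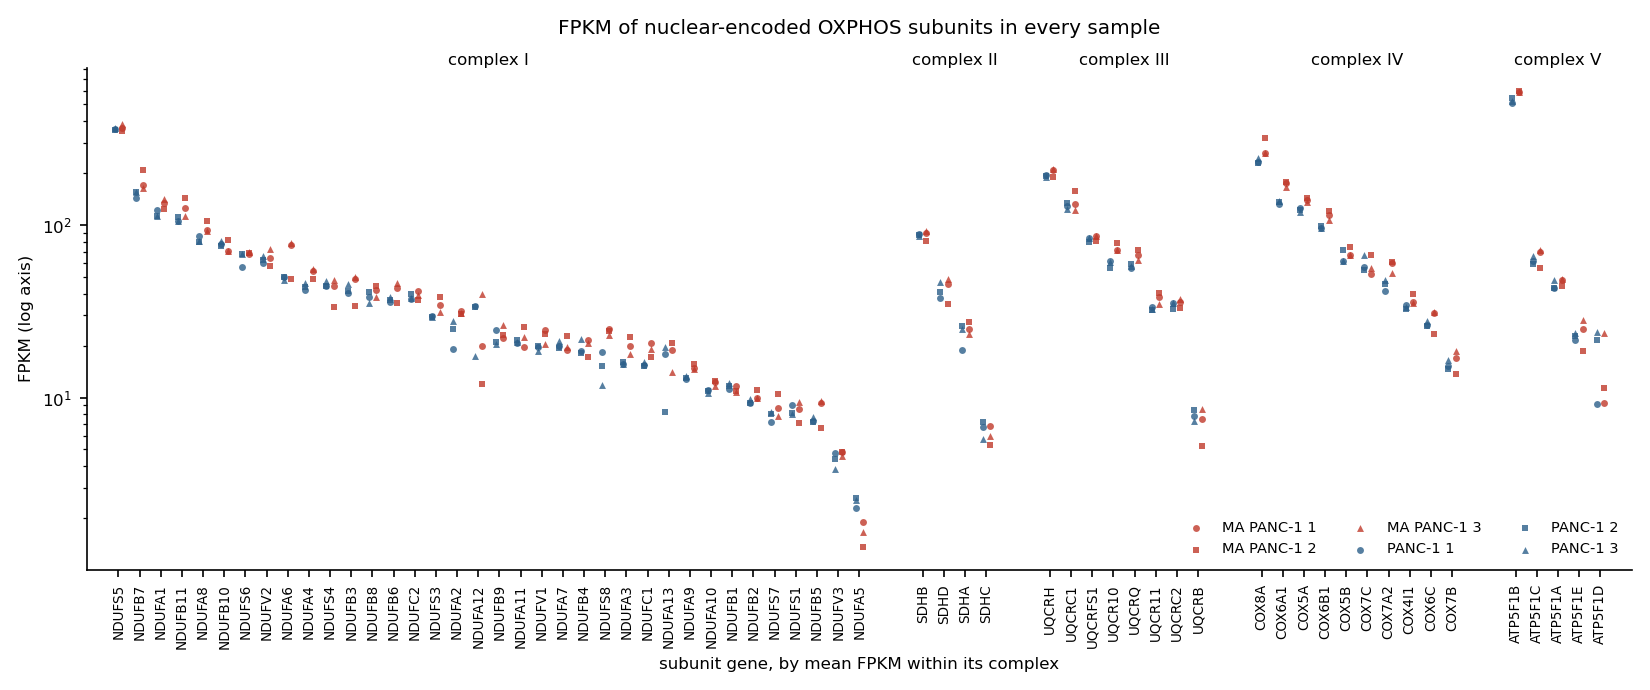
FPKM (log axis) of 63 of the 64 subunit genes, ordered by mean FPKM within its complex, with MA samples in red and untreated samples in blue, and circles, squares and triangles for samples 1, 2 and 3. Levels span from 2.06 (NDUFA5) to 560.1 (ATP5F1B) in mean FPKM, far more than the distance between red and blue for any gene.

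The comparison of MA with untreated cells asks which genes respond to the compound. For the OXPHOS subunits the differences were small and mostly in the same direction. The log2 fold change was above 0 for 56 of 64 members (87.5%), against 49.8% of the 17774 genes tested, and its median was 0.16 against -0.0017 over all genes. By edgeR's quasi-likelihood test 20 members (31.2%) were higher after MA at an unadjusted p under 0.05, against a background of 5.37% of all genes. Only NDUFA5 was lower at that threshold, against a background of 5.86%. The background is not matched to the members. Their counts varied less within groups, with a median biological coefficient of variation of 0.132 in edgeR against 0.227 over all genes tested. A given small difference is called more readily in such genes. Their principal transcripts were also shorter, with a median of 923 bases against 2209. A matched background was not tested. No member reached an adjusted p under 0.05 with Benjamini-Hochberg adjustment by edgeR (background 0.0394%). DESeq2 gave 3 such members, NDUFS8, COX6A1 and NDUFA5, against a background of 1.46%. None passed the screening thresholds of the study, an at least 2-fold change with an unadjusted p under 0.05, which 0.675% of all genes passed upward and 1.25% downward.

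Without a model, the FPKM values of the groups were compared directly. In 25 members (39.1%) every MA sample lay above every untreated sample, against a background of 8.79%, again not matched for variation. In NDUFA5 alone every MA sample lay below every untreated sample, against a background of 11.1%, and in 38 members the groups overlapped. With 3 samples against 3, the exact two-sided permutation test cannot go below a p of 0.1, so it calls no gene at 0.05.

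The count of 20 changed with the samples in the fit. It was 9 without MA PANC-1 1 (background 3.8%), 6 without PANC-1 1 (3.1%), 7 without PANC-1 2 (3.52%) and 7 without PANC-1 3 (3.26%). Without MA PANC-1 2, the sample that stood apart the most, it was 21 (background 4.51%), of which 15 were among the 20. Leaving out MA PANC-1 3 gave 22 (8.39%). The number of members with a log2 fold change above 0 stayed between 54 and 57 and the median between 0.13 and 0.18 in these 6 fits.

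**Figure D2:**
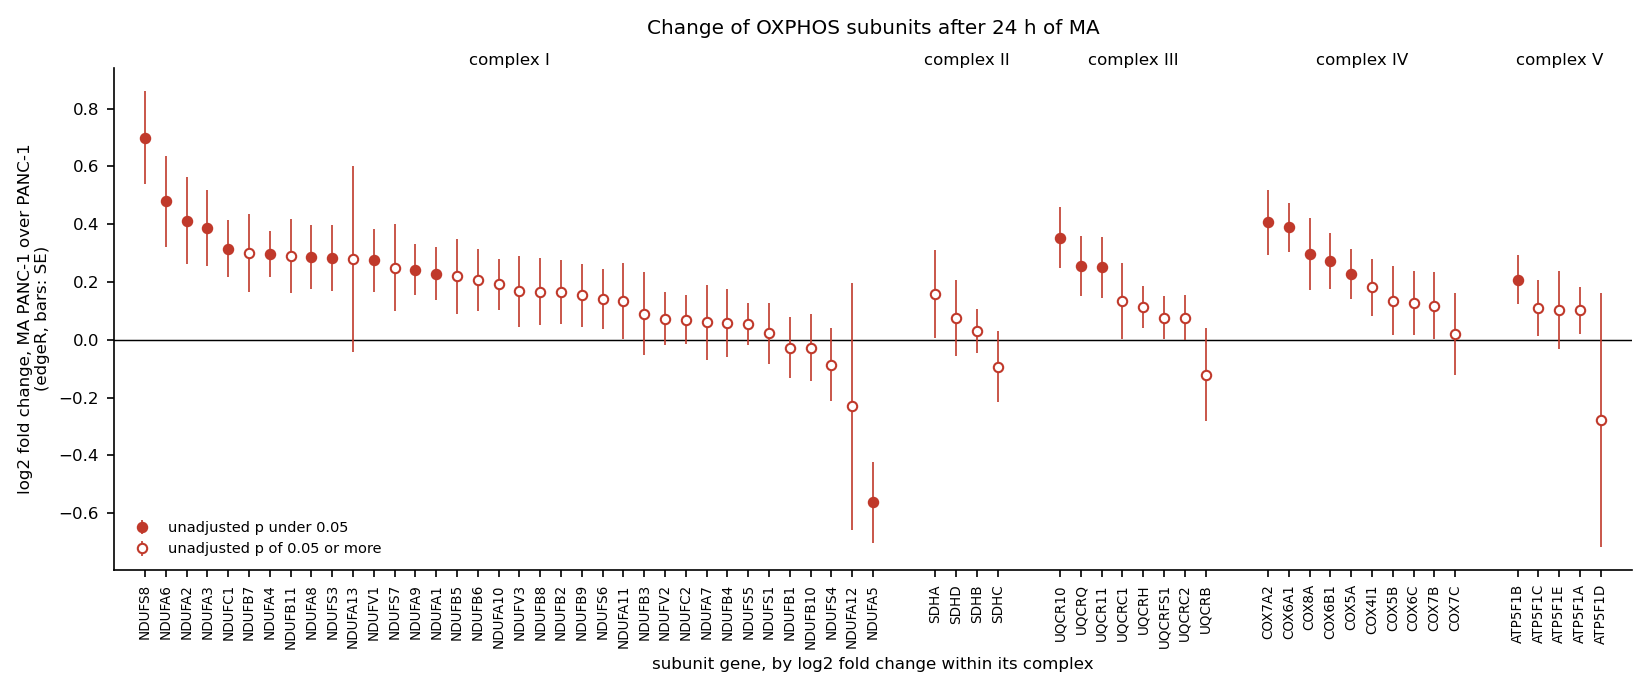
Log2 fold change of MA PANC-1 over PANC-1 for 63 of the 64 subunit genes from edgeR, with bars for the standard error, ordered within each complex. Filled points have an unadjusted p under 0.05: 20 lie above 0 and NDUFA5 lies below.

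Together the 64 genes took 1.048, 1.046 and 1.053% of all estimated counts in MA PANC-1 1, 2 and 3 and 0.942, 0.964 and 0.966% in the untreated samples. The MA samples were all higher, and the groups did not overlap. Complex I took 0.370, 0.369 and 0.375% after MA and 0.335, 0.334 and 0.333% without it, a ratio of the means of 1.11. Complex IV had the largest ratio of the 5 complexes, 1.15, with 0.160, 0.170 and 0.158% against 0.140, 0.141 and 0.144%. The share of complex III was 1.06 times and that of complex V 1.09 times as high, each again without overlap between the groups. In complex II the groups overlapped, with 0.0788, 0.0730 and 0.0779% after MA and 0.0698, 0.0787 and 0.0767% without it. These shares are sums over the chosen members and are given without a test. In bulk RNA, a change within the cells and a change in the mix of cells cannot be told apart.

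**Figure D3:**
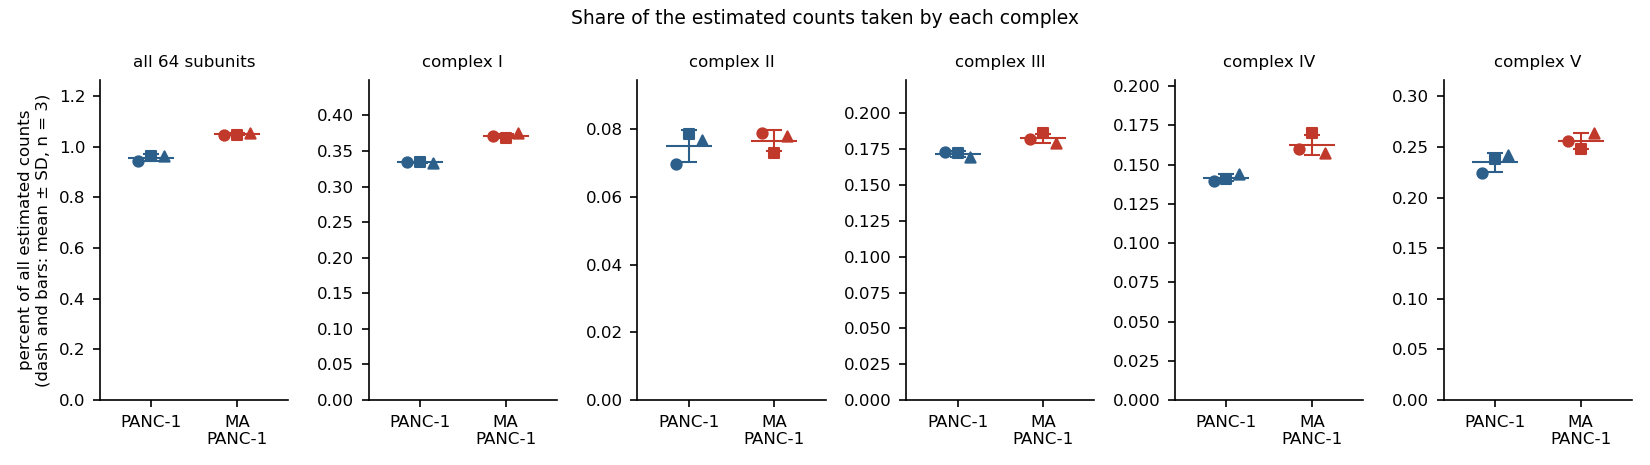
Percent of all estimated counts taken by all 64 subunits and by each complex in every sample, with the mean and SD of the 3 samples of each group, and circles, squares and triangles for samples 1, 2 and 3. The MA samples sit above the untreated samples in every panel except that of complex II.

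Complex I oxidises NADH through a catalytic core of flavin and iron-sulphur subunits, which about 30 accessory subunits surround. In the 37 members the log2 fold change was above 0 in 32 (background 49.8%), with a median of 0.17. At an unadjusted p under 0.05, 11 were higher (background 5.37%) and 1 lower (background 5.86%). All 7 nuclear-encoded core subunits were above 0, with a median of 0.25, and 3 of them were higher at an unadjusted p under 0.05 (NDUFS8, NDUFS3 and NDUFV1). The core median was 0.12 when MA PANC-1 2 was left out and 0.15 with the GC trend removed. NDUFV1 was called in neither of these fits (edgeR unadjusted p = 0.081 and 0.10). NDUFS3 was also not called when MA PANC-1 2 was left out (edgeR unadjusted p = 0.060). Of the 30 accessory subunits 25 were above 0, with a median of 0.17 (0.13 when MA PANC-1 2 was left out), and 8 were higher. NDUFA4 is counted among the 30 and among the 8 by its name.

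NDUFS8, a core subunit that holds iron-sulphur clusters, had the largest difference of the 64. The gene (ENSG00000110717) lies at chr11:68030617-68036644 on the + strand in the positions of the table, which match GRCh38. Its FPKM was 24.8, 24.3 and 23.1 after MA and 18.4, 15.2 and 11.9 without it. The MA samples lay close together and the untreated samples were spread out below them. The log2 fold change was 0.70 ± 0.16 (SE), with an edgeR unadjusted p of 0.0033 and an adjusted p of 0.38. NDUFS3, another core subunit, had 34.4, 38.4 and 31.5 FPKM against 29.5, 29.3 and 29.4, a log2 fold change of 0.28 ± 0.12 (edgeR unadjusted p = 0.043, adjusted p = 0.44). It fell short of that threshold when any sample other than MA PANC-1 3 was left out, and leaving out MA PANC-1 2 gave a log2 fold change of 0.16 (unadjusted p = 0.060). NDUFS3 shares its strand and place with PTPMT1, which had 9645 to 11162 counts in the samples, and the counting could move reads between them. With the counts of both genes added, the log2 fold change was 0.23.

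NDUFA4, a complex IV subunit counted here by its name, had 54.3, 48.5 and 55.4 FPKM after MA and 42.2, 43.4 and 46.1 without it. The groups did not overlap, and the log2 fold change was 0.30 ± 0.08 (edgeR unadjusted p = 0.0070, adjusted p = 0.39). With the GC trend removed it was 0.51 (edgeR unadjusted p = 0.0012). NDUFC1 had 20.7, 17.1 and 19.1 against 15.3, 15.3 and 16.1 FPKM and NDUFA3 had 19.9, 22.4 and 17.9 against 15.6, 16.1 and 15.7. Both were higher without overlap, by log2 fold changes of 0.32 ± 0.10 and 0.39 ± 0.13, with edgeR unadjusted p-values of 0.016 and 0.021 and adjusted p-values of 0.41 and 0.43. NDUFC1 passed the unadjusted threshold only while MA PANC-1 1, PANC-1 1 and PANC-1 2 were all in the fit (0.073, 0.060 and 0.057 without each), and NDUFA3 only with PANC-1 1 and PANC-1 3 (0.062 and 0.059). Without MA PANC-1 2 the log2 fold change of NDUFA3 was 0.25.

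NDUFA6 differed between the MA samples themselves. Its FPKM was 76.2 and 78.3 in MA PANC-1 1 and 3, but 48.7 in MA PANC-1 2, which fell inside the untreated range of 48.2 to 50.2. The log2 fold change was 0.48 ± 0.16 with all samples (edgeR unadjusted p = 0.018, adjusted p = 0.42), 0.64 without MA PANC-1 2, and 0.40, 0.38 and 0.46 without MA PANC-1 1, MA PANC-1 3 and PANC-1 3, with unadjusted p-values of 0.065, 0.058 and 0.054. NDUFS5, the most abundant complex I member by FPKM, had 363.9, 350.4 and 384.0 against 362.5, 354.7 and 366.8 FPKM. Its log2 fold change of 0.05 ± 0.07 was within the spread of the samples (edgeR unadjusted p = 0.49).

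NDUFA5 (ENSG00000128609, chr7:123536997-123557904, - strand) went the other way. This accessory subunit of the peripheral arm had 1230, 995 and 1096 estimated counts after MA against 1826, 1949 and 1713 without it, or a mean of 1.64 FPKM against 2.48. All MA samples lay below all untreated samples, and the log2 fold change was -0.56 ± 0.14 (edgeR unadjusted p = 0.0048, adjusted p = 0.38). It had the lowest GC content of the 64 at 36.4%, and after the trend with GC was removed the log2 fold change was -0.26 with an unadjusted p of 0.14. The member called lower in that fit was NDUFB10 (-0.15, unadjusted p = 0.037), which had a log2 fold change of -0.03 before the removal.

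NDUFA13 and NDUFA12 varied too much within the groups to be compared. NDUFA13 had 18.9, 20.6 and 14.1 FPKM after MA and 17.8, 8.20 and 19.5 without it. The low untreated sample, PANC-1 2, was the sample in which the overlapping gene AC011448 had its highest count, 2849 against 194 to 1850 in the others. With the 2 genes added the log2 fold change of NDUFA13 went from 0.28 to 0.13. When a sample was left out it ranged from -0.021 (without PANC-1 2) to 0.50. NDUFA12 had 19.8, 12.0 and 39.8 against 33.8, 33.6 and 17.5 FPKM, so that high and low samples stood in both groups, with a log2 fold change of -0.23 ± 0.43 (edgeR unadjusted p = 0.61) that was 0.07 when MA PANC-1 2 was left out.

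Complex II is succinate dehydrogenase, which is also an enzyme of the tricarboxylic acid (TCA) cycle. In all 4 members the groups overlapped, the median log2 fold change was 0.05, and none had an unadjusted p under 0.05. The median was 0.0026, 0.014 and 0.088 when MA PANC-1 3, PANC-1 1 and PANC-1 3 were left out. SDHA, the flavoprotein that oxidises succinate, had 24.9, 27.4 and 23.3 FPKM after MA and 18.7, 25.9 and 25.0 without it, with a log2 fold change of 0.16 ± 0.15. The low value of PANC-1 1 coincided with the highest count of the overlapping gene AC021087, 6158 against 247 to 2310 in the others, and with both genes added the log2 fold change was 0.11. Leaving out PANC-1 1, MA PANC-1 2 or PANC-1 2 gave 0.023, 0.051 or 0.24. SDHB, the iron-sulphur subunit, was the most even of the 4, with 89.3, 80.4 and 92.5 against 89.0, 87.5 and 86.3 FPKM and a log2 fold change of 0.03 ± 0.08. When a sample was left out, the SDHB value ranged from 0.010 to 0.051. The membrane anchors SDHC and SDHD had 6.84, 5.33 and 5.97 against 6.78, 7.24 and 5.76 FPKM and 45.8, 34.7 and 49.0 against 37.9, 40.8 and 46.9 FPKM. Their log2 fold changes were -0.09 ± 0.12 and 0.07 ± 0.13, and in each MA PANC-1 2 was the lowest of the 6 samples. Leaving it out gave -0.04 for SDHC and 0.18 for SDHD, and SDHD was at -0.0048 without MA PANC-1 3. For SDHC the value was -0.18 without PANC-1 3 and -0.02 without PANC-1 2.

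Complex III passes electrons from ubiquinol to cytochrome c. Of its 8 members 7 had a log2 fold change above 0 (background 49.8%), with a median of 0.12. At an unadjusted p under 0.05, 3 small subunits, UQCR10, UQCRQ and UQCR11, were higher (background 5.37%). With MA PANC-1 2 left out, UQCRQ went from 0.25 to 0.16 (unadjusted p = 0.060) and UQCR11 from 0.25 to 0.16 (0.073). UQCR11 was also not called with its overlapping gene AC005943 added (0.20, unadjusted p = 0.11) or with the GC trend removed (unadjusted p = 0.10). UQCR10 had 71.8, 78.7 and 71.8 FPKM after MA and 62.2, 56.0 and 60.8 without it. All MA samples were above all untreated samples, with a log2 fold change of 0.35 ± 0.11 (edgeR unadjusted p = 0.012, adjusted p = 0.39). The most abundant member, the hinge subunit UQCRH, had 209.6, 190.4 and 210.7 against 195.7, 192.6 and 190.0 FPKM. UQCRH has a near-identical copy, UQCRHL, with a mean of 6.76 FPKM, and reads could be split between them. The groups overlapped for UQCRH through MA PANC-1 2, and the log2 fold change was 0.11 ± 0.07 (edgeR unadjusted p = 0.16). UQCRB, the least abundant by FPKM, had 7.48, 5.24 and 8.60 against 7.78, 8.50 and 7.33, with a log2 fold change of -0.12 ± 0.16 that was 0.03 without MA PANC-1 2. The core proteins UQCRC1 and UQCRC2 and the Rieske iron-sulphur protein UQCRFS1 had log2 fold changes of 0.13, 0.08 and 0.08, none with an unadjusted p under 0.05. UQCRC1 went to -0.02 with MA PANC-1 2 left out and to 0.0054 with the GC trend removed. That removal took UQCRC2 to 0.15 (edgeR unadjusted p = 0.037) and UQCRFS1 to 0.16 (0.0502).

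Complex IV transfers electrons from cytochrome c to oxygen, and its catalytic core is encoded by mitochondrial DNA. Each of the 10 members had a log2 fold change above 0 with all samples (background 49.8%), with a median of 0.20. At an unadjusted p under 0.05, 5 of 10 were higher (COX6A1, COX7A2, COX5A, COX6B1 and COX8A), against a background of 5.37%. COX6A1 (ENSG00000111775, chr12:120438090-120440730, + strand) had 175.8, 176.4 and 166.5 FPKM after MA and 133.2, 135.3 and 138.2 without it. The spread within each group was small beside the gap between them, and the log2 fold change was 0.39 ± 0.08 (edgeR unadjusted p = 0.0023, adjusted p = 0.36), the smallest p among the 64. The unadjusted p stayed under 0.05 whichever sample was left out. COX7A2, the widely expressed isoform of subunit 7A, had 60.2, 61.3 and 53.0 against 41.7, 45.4 and 48.1 FPKM, again without overlap, with a log2 fold change of 0.41 ± 0.11 (edgeR unadjusted p = 0.0080, adjusted p = 0.39).

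COX8A was the most abundant complex IV member by FPKM. It had 261.3, 317.5 and 263.0 FPKM after MA and 233.4, 227.7 and 244.3 without it, with a log2 fold change of 0.30 ± 0.12 (edgeR unadjusted p = 0.046, adjusted p = 0.44). MA PANC-1 2 was the highest of the 6 samples, and without it the log2 fold change was 0.16. With the GC trend removed the log2 fold change was 0.17. Without PANC-1 1, 2 or 3 the unadjusted p was 0.11, 0.12 or 0.077. COX7B, the least abundant by FPKM, had 16.8, 13.7 and 18.7 against 15.3, 14.7 and 16.4, with the lowest and the highest value both in MA samples and a log2 fold change of 0.12 ± 0.12. That was 0.20 without MA PANC-1 2 and 0.04 without MA PANC-1 3. COX7C had 52.2, 66.6 and 56.6 against 56.8, 54.8 and 66.6 FPKM, with overlapping groups and a log2 fold change of 0.02 ± 0.14 that was -0.13 without MA PANC-1 2.

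In complex V the rule takes the catalytic F1 part alone, whose subunits ATP5F1A and ATP5F1B form the ring that makes ATP and ATP5F1C, ATP5F1D and ATP5F1E the central stalk. The median log2 fold change of the 5 was 0.10, and 0.16 when MA PANC-1 2 was left out. ATP5F1B had 590.9, 600.9 and 587.7 FPKM after MA and 507.2, 547.9 and 526.1 without it. It was the only one of the 5 whose groups did not overlap (background 8.79% with every MA sample above). Its log2 fold change was 0.21 ± 0.08 (edgeR unadjusted p = 0.043, adjusted p = 0.44). The unadjusted p was 0.074, 0.16, 0.058 and 0.12 without MA PANC-1 1, PANC-1 1, PANC-1 2 and PANC-1 3. ATP5F1A had 48.0, 44.1 and 48.6 against 43.2, 43.0 and 48.1 FPKM (log2 fold change 0.10 ± 0.08). The groups overlapped through the high PANC-1 3. ATP5F1C had 70.2, 56.4 and 71.3 against 62.2, 59.1 and 66.2 FPKM (0.11 ± 0.10) and ATP5F1E had 24.9, 18.5 and 28.2 against 21.5, 22.9 and 23.7 FPKM (0.10 ± 0.13). In both genes MA PANC-1 1 and 3 were above all untreated samples and MA PANC-1 2 was below them. Leaving it out raised them to 0.18 for ATP5F1C (edgeR unadjusted p = 0.045) and 0.23 for ATP5F1E (0.034), and both were then called. The lowest values when a sample was left out were 0.071 for ATP5F1C and -0.010 for ATP5F1E. ATP5F1D was erratic, with 9.35, 11.3 and 23.6 FPKM after MA and 9.17, 21.7 and 23.9 without it, and its log2 fold change of -0.28 ± 0.44 says nothing of a direction.

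A feature that the choice of members did not use was their base composition. The GC content of the principal transcripts ran from 36.4% (NDUFA5) to 69.3% (ATP5F1D), with a median of 48.9% against 49.6% over all genes tested. In 26 of the 33 members with a GC content below 50% MA PANC-1 2 had the lowest of the 3 MA values, and in 24 of the 31 members at 50% or more it had the highest. Its log2 difference from the other MA samples went with GC content across the 64 genes with a Pearson's r of 0.64 (Spearman's rho 0.72). The log2 fold change of MA over untreated went with GC content with an r of 0.36 (rho 0.42) in all samples and 0.02 (rho -0.09) without MA PANC-1 2. These are descriptions across genes measured in the same libraries. The same counts and correlations over all genes are not given, so they do not show a trait particular to the subunits. Over all genes, the count-weighted GC content of MA PANC-1 2 was also the highest, at 52.0% against 50.6 to 51.1% in the other samples.

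The median log2 fold change was 0.09 for the members below 50% GC and 0.23 for the others, which became 0.12 and 0.14 without MA PANC-1 2. After a GC trend was removed within each sample, a step added once the samples had been seen, 31 members were higher at an unadjusted p under 0.05 (background 7.88%), of which 17 were among the 20, and the median was 0.15. The relation with GC content was then reversed among the 64, with an r of -0.29 (rho -0.34) and medians of 0.19 below 50% GC and 0.13 for the others. The members that came in included ATP5F1A, ATP5F1C, ATP5F1E, SDHD, UQCRH and COX7B, with log2 fold changes of 0.17, 0.26, 0.34, 0.25, 0.15 and 0.29 after the removal.

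**Figure D4:**
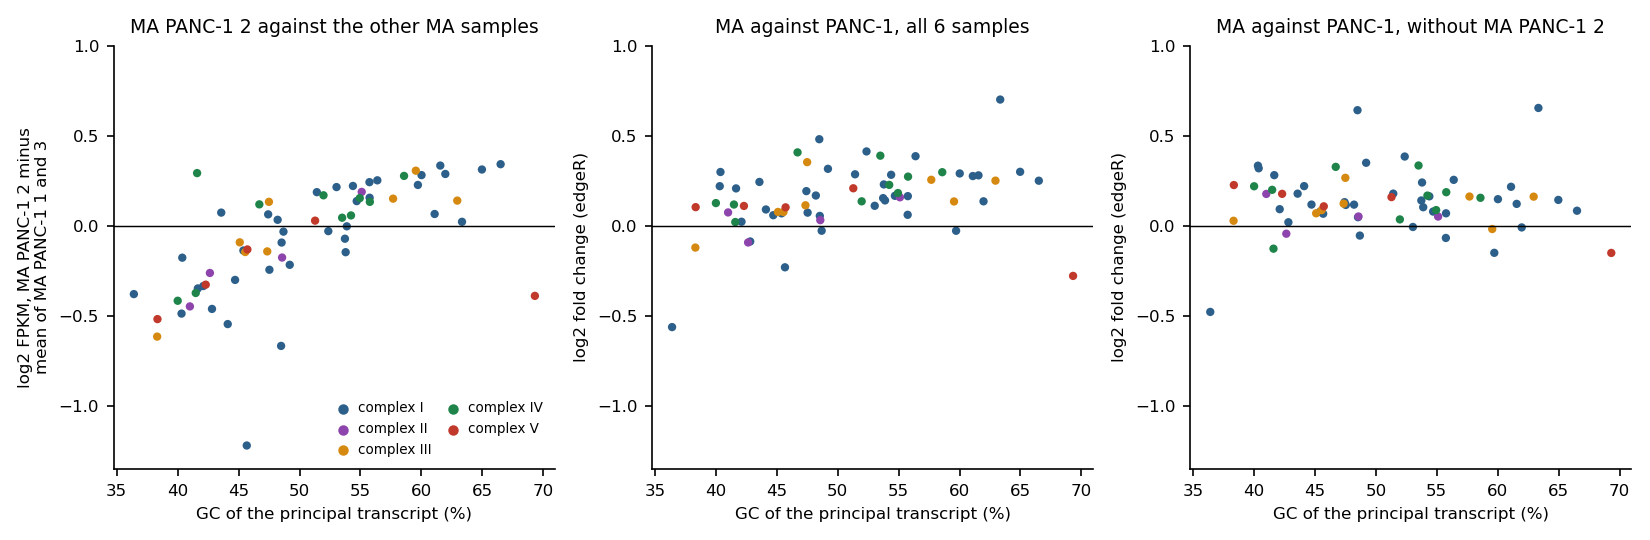
GC content of the principal transcript (%) of the 64 subunit genes against the log2 FPKM difference of MA PANC-1 2 from the mean of the other MA samples (left), the log2 fold change with all 6 samples (middle) and the log2 fold change without MA PANC-1 2 (right), coloured by complex. The rise with GC content on the left (r = 0.64) is weaker in the middle (0.36) and near 0 on the right (0.02).

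The promoters were searched for the binding letters of regulators of nuclear mitochondrial genes, as a description of their sequence. RefSeq windows (GRCh38.p14) of 250 bases before to 50 after the start were matched by symbol for 53 of the 64 members. Among those with no entry were ATP5F1B, ATP5F1D, COX6C, NDUFA4, NDUFB5, NDUFB9, NDUFC2, NDUFS5, SDHC and UQCRB. The letters searched on both strands were CCGGAAGT for the ETS factor GABP, AAGATGGCG for YY1 and, for NRF1, the 10 bases that stand in capitals near the start of the SDHD window, and none of the 3 can lie inside another. GABP letters were in 8 of the 53 (15.1%, against 4.14% of 35116 promoters of the same length), YY1 letters in 7 (13.2% against 1.75%) and NRF1 letters in 4 (7.55% against 1.24%), and 18 (34.0% against 6.74%) held at least 1 of them. All 7 YY1 matches read on the gene's own strand, 11 to 26 bases after the start, in NDUFA6, NDUFA7, NDUFA9, NDUFS4, NDUFS7, SDHB and UQCRC1. The 35116 promoters were not limited to genes expressed in these cells. Of the 18 matched members that were higher at an unadjusted p under 0.05, 3 held GABP, 2 held YY1 and 1 held NRF1 letters, against 5, 5 and 3 of the other 35. Whether the letters go with the difference after MA was not tested.

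Windows of 60 bases upstream of the start are shown for COX8A, UQCRQ and UQCR11, which were higher at an unadjusted p under 0.05 and hold GABP letters, and for UQCRH and SDHD, which were not called and hold them too, SDHD together with NRF1 letters. They read 5′ to 3′ on the gene's strand, and the capitals mark the matched letters (ACTTCCGG is the reverse complement of the GABP letters). A match is a description of the letters and not a sign that the factor binds.
COX8A (chr11:63974560-63974619, + strand, bases -60 to -1): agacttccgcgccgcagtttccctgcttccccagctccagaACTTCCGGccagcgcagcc
UQCRQ (chr5:132866562-132866621, + strand, bases -80 to -21): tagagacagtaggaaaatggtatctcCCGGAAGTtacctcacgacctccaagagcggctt
UQCR11 (chr19:1605546-1605605, - strand, bases -143 to -84): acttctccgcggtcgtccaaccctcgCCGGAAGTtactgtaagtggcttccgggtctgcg
UQCRH (chr1:46303625-46303684, + strand, bases -73 to -14): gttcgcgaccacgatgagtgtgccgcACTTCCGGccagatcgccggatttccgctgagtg
SDHD (chr11:112086753-112086812, + strand, bases -120 to -61): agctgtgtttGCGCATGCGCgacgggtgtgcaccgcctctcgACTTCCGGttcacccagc

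Of 9 regulators tested, none was higher and 2 were lower at an unadjusted p under 0.05 (background 5.37% and 5.86%), and 4 had a log2 fold change above 0 (background 49.8%), with a median of -0.12. The largest difference was that of ESRRA, an orphan nuclear receptor, with 25.5, 29.8 and 22.6 FPKM after MA and 21.9, 22.6 and 12.3 without it. Its MA samples were all above its untreated samples, narrowly, with a log2 fold change of 0.50 ± 0.25 (edgeR unadjusted p = 0.085). TFAM, which packages and transcribes mitochondrial DNA, had a mean of 7.13 FPKM after MA and 9.59 without it, with a log2 fold change of -0.40 ± 0.16 (edgeR unadjusted p = 0.038, adjusted p = 0.44). GABPA, the DNA-binding part of GABP, had 4.97 and 7.02 FPKM, with a log2 fold change of -0.47 ± 0.19 and groups that overlapped (edgeR unadjusted p = 0.040, adjusted p = 0.44). In both genes MA PANC-1 2 was the lowest of the 6 samples, at 5.28 FPKM for TFAM and 3.67 for GABPA. Fits without that sample are not given for them.

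The other parts of the pathway are given by their counts, beside which 5.37% of all genes tested were higher and 5.86% lower at an unadjusted p under 0.05, 49.8% were above 0, and 8.79% had every MA sample above and 11.1% every MA sample below the untreated samples. Of 13 further genes of ATP synthase found in the table, its inhibitor ATP5IF1 included, 12 had a log2 fold change above 0. Their median was 0.15, and ATP5MC3 (0.30), ATP5MG (0.24) and ATP5MF (0.21) were higher at an unadjusted p under 0.05. Of 14 TCA cycle enzymes 9 were above 0, with the same median of 0.15, and 3 were higher, among them IDH3B (0.33) and SUCLG1 (0.25). In 5 of the 14 every MA sample was above every untreated sample, and in 2, SUCLG2 (-0.30) and OGDH (-0.10), every MA sample was below. The 13 subunits encoded by mitochondrial DNA had a median of 0.01 with 7 above 0, and none was called in either direction. In 3 of them, MT-CO2 (-0.15), MT-CO3 (-0.29) and MT-ATP6 (-0.19), every MA sample was below every untreated sample, and in none was every MA sample above. Their summed FPKM was 47279, 58538 and 54626 after MA and 57777, 55629 and 57157 without it, with overlap between the groups. All mitochondrially encoded transcripts took 5.48, 6.80 and 6.33% of the counts after MA and 6.61, 6.53 and 6.53% without it.

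Assembly factors build the complexes without staying in them. The 17 for complex I had a median log2 fold change of 0.01 and no call. Of the 22 for complex IV, with a median of 0.02, SURF1 (0.44) and TACO1 (0.35) were higher at an unadjusted p under 0.05. The 4 for complex II, 6 for complex III and 4 for complex V had medians of 0.09, 0.09 and -0.10 and no call. Of 12 genes for cytochrome c and the synthesis of ubiquinone, with a median of 0.01, COQ9 (0.25) was higher. The remaining genes tested were 2 complex I genes (NDUFAB1 and NDUFA4L2) with a median of 0.32, 2 complex III genes (CYC1 and UQCRHL) with 0.16 and the complex IV isoforms COX6B2, COX7A2L and COX7B2 with log2 fold changes of -0.12, 0.12 and 0.20, and none of these was called. No gene of these lists had an adjusted p under 0.05 by edgeR, and whether any list differs from the 64 members was not tested.

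**Figure D5:**
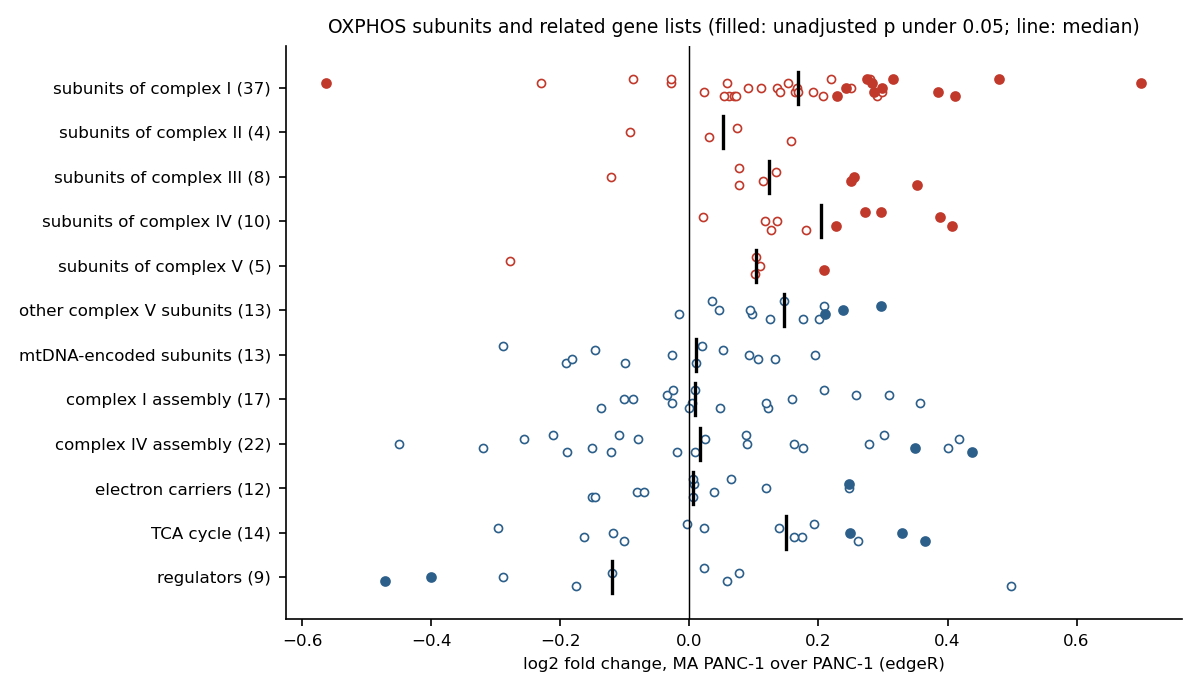
Log2 fold change of MA PANC-1 over PANC-1 (edgeR) for the 64 subunits by complex (red) and for related gene lists (blue), with the number of genes tested in brackets, filled points for an unadjusted p under 0.05 and a black line at the median. The medians of complexes I, III, IV and V, of the further complex V genes and of the TCA cycle lie between 0.10 and 0.20, and those of the mitochondrially encoded subunits, the assembly factors shown and the carriers at 0.01 to 0.02.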

How the data were processed

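RNA-seq of 3 MA-treated and 3 untreated PANC-1 samples was analysed from the table of FPKM and estimated counts that the authors deposited. The submitters' processing notes name cutadapt 1.9, HISAT2 2.0.4, StringTie 1.3.4d, edgeR and DESeq2. The genome build is not given in the sources used here; gene positions match GRCh38 and GENCODE annotation. The deposited estimated counts are whole but exceed the sequenced reads, and a gene without reads is listed at 0.0001 FPKM.

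The 17774 genes whose FPKM averaged 0.1 or more were tested with edgeR 4.0.16 (TMM factors, glmQLFit and glmQLFTest, R 4.3.3), with Benjamini-Hochberg adjustment over all of them. Fold changes are on that scale, and differ slightly from ratios of the deposited FPKM. The test was also run on simulated counts, whose outcome is not given here, and nothing is drawn from it. Alternatives, including DESeq2 1.42.0, limma 3.58.1 and leaving out each sample, brought the number of fits to 22. Named genes were all complex II and ATP5F1 members, the extremes of level and change in each complex, up to 8 members per direction with the smallest p-values, and members overlapping another gene. Which overlapping members to name (NDUFA13, SDHA, NDUFS3), NDUFA12, NDUFB10, COX7C, NDUFV3, UQCRC1, UQCRC2, UQCRFS1 and the values given for ESRRA, SUCLG2, OGDH and 3 mitochondrial genes were settled after their values were seen. Members and lists were chosen with earlier results of these data known. Some single-gene values are not reported here.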

Additional observations from a re-analysis of the deposited data

How the results depend on the processing

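The direction of the median log2 fold change of the 64 subunits and of each complex was the same in all 22 fits. The number higher at an unadjusted p under 0.05 was 20 with all samples (background 5.37%) and 31 with the GC trend removed (7.88%). It was between 6 and 22 when a sample was left out, with the backgrounds given above. In the other fits it ranged from 14 by DESeq2 (background 5.55%) to 25 with the GC trend removed and the replicate block (7.16%). The number lower was 1 in each fit except 0 with the GC trend removed together with the replicate block, and the gene was NDUFA5 except with the GC trend removed, where it was NDUFB10. The number with an adjusted p under 0.05 was 0 by edgeR and 3 by DESeq2.

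The same-numbered samples of the groups correlated at 0.029, 0.050 and 0.072, so the numbers were not taken to pair the samples, although each correlated best with its own number. With the replicate block 18 members were higher (background 5.50%), 16 of them shared, and 0 reached an adjusted p under 0.05.

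The level of a complex, as the median FPKM of its members in percent of that of all 64, depended on the length used. For complex I it was 67.4 by FPKM, 78.1 by CPM, 75.8 per kilobase of principal transcript and 73.9 per kilobase of coding sequence. In the same order it was 91.2, 171.3, 105.5 and 110.6 for complex II, 177.0, 171.4, 108.8 and 177.3 for complex III, 175.0, 131.4, 254.0 and 194.6 for complex IV, and 125.4, 158.5, 106.0 and 159.8 for complex V. The lengths differ by construction.

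For the 25 named genes 465 values under the alternatives kept their direction and side of the unadjusted threshold, 35 lost the call, 13 gained it and 12 changed sign, each of them uncalled under both. COX7C, NDUFA12 and UQCRC1, named after their values were seen, went to -0.13, 0.07 and -0.02 without MA PANC-1 2. When a sample was left out, the log2 fold change ranged from -0.010 to 0.23 for ATP5F1E, from -0.0048 to 0.18 for SDHD (both lowest without MA PANC-1 3), from -0.021 to 0.50 for NDUFA13 (lowest without PANC-1 2) and from -0.26 to 0.028 for UQCRB (highest without MA PANC-1 2). SDHB changed sign with library sizes alone (-0.0040) and with limma on log2(FPKM + 0.1), log2(FPKM + 1) and log2(FPKM + 0.01) (-0.0056, -0.0055 and -0.0056). SDHC (0.051) and UQCRB (0.11) changed sign with the GC trend removed, and at 0.056 and 0.12 with the replicate block as well. The cause was not tested.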
